A study of Tribolium castaneum with 6 samples.

Results

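The named genes of the X chromosome of the red flour beetle *Tribolium castaneum* were examined in late larvae after injection of double-stranded RNA against the AMPK α subunit gene. The members were the genes with a name in the deposited transcript tables whose transcripts all lie on the sequence of linkage group X of assembly Tcas5.2 (NC_007416.3), and there were 743 of them, of 15099 genes in all and 5.67% of the named genes on chromosomes. They were set beside 12355 named genes on the 9 other linkage groups, called autosomal genes here. Larvae of the Georgia-1 strain received about 200 ng of dsTcAMPKα, or of dsEGFP, which targets a jellyfish fluorescent protein gene that a beetle does not carry, at 20 days of age. RNA was taken from pools of 10 unsexed whole larvae on the sixth day after injection, with 3 libraries of each treatment, and neither group was without injected dsRNA. The knockdown lowers the transcript without removing it, whole larvae do not show in which tissues, and the share of males in each pool is not given in the sources used here.

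*Tribolium* males carry a single X and a Y, and females carry a pair of X chromosomes. In animals with such sex chromosomes a male has fewer copies of each X-linked gene than of each autosomal gene, and many species hold the output of X-linked genes near that of autosomal genes in both sexes, a state called dosage compensation. In *Drosophila* the male-specific lethal (MSL) complex raises transcription of the male X, and msl-2 is its male-limited subunit. AMPK is a kinase that is switched on when cellular energy is low and that restrains growth and biosynthesis. In libraries of unsexed whole animals the level of an X-linked gene mixes both sexes and all tissues, and fewer cells of a type cannot be told apart from less RNA per cell.

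FPKM, the fragments per kilobase of transcript, scaled to the mapped fragments of the library, was summed over the transcripts of each gene. The libraries held an estimated 33518139 to 37584930 reads. Snf1a, the targeted gene, which is autosomal, had 10.7, 7.32 and 16.3 FPKM in dsTcAMPKα libraries, against 77.3, 74.9 and 56.9 FPKM in dsEGFP libraries. The groups did not overlap. Mitochondrial transcripts took 12.2% to 13.8% of the estimated reads in dsTcAMPKα libraries and 20.4% to 24.1% in dsEGFP libraries. FPKM is scaled to a total that includes them, and their part in the results below was not tested. The replicates are pools that the study describes as biologically independent, and the precision of every value below is limited by 3 libraries a group.

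Of the 743 members, 595 averaged 1 FPKM or more across the 6 libraries and were tested, which is 80.1% of them, against 75.4% of autosomal genes. Of the 148 that did not, 38 were listed at 0 in every library and 110 lay above 0. Genes named Mir, for microRNA precursors, made up 31 of the 38, and 30 of these lie in a single run at chrX:6585843-6600565. Libraries made from fragmented poly(A) RNA do not measure microRNAs of this size, so no level is given for them. A further 2 Mir genes were tested, and the transcript listed for Mir3832 is 22 nt long and lies in a locus that another named gene also occupies, so that its FPKM of 9.54 to 21.8 over the 6 libraries is uncertain. The X-linked genes spread over the whole sequence (chrX:6933-8672649), 363 on the plus strand and 358 on the minus strand. Their transcripts were longer than those of autosomal genes, with a median of 2012 nt (quartiles 1336 and 3010.5 nt) against 1573 nt (992 and 2383 nt), and they had a median of 6 exons against 4. No other linkage group had a median above 1626 nt. Only 27 members shared an assembled locus with another named gene, 3.63% of them against 6.81% of autosomal genes. Symbols were matched by gene number to RefSeq (icTriCast1.1) for 680 of the 743 members, and 678 of these 680 are placed on a single chromosome in that newer assembly. Gene names below are RefSeq symbols where there is one, and functions are those of the *Drosophila* or other animal gene of that symbol, or the annotation tables of the study where these are named.

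The first question was whether X-linked genes were expressed at the level of autosomal genes in each library. X-linked genes as a class had a median FPKM of 0.799 to 1.11 times that of autosomal genes over the 6 libraries. The median of the 595 tested X-linked genes was 19.0, 19.0 and 18.8 FPKM in dsTcAMPKα libraries, against 14.6, 12.2 and 12.6 FPKM in dsEGFP libraries. That of the 9320 tested autosomal genes was 17.3, 17.2 and 17.3 FPKM in dsTcAMPKα libraries, against 15.1, 13.5 and 15.8 FPKM in dsEGFP libraries. Both medians were higher in every dsTcAMPKα library than in any dsEGFP library, and the gap was wider for the X.

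The ratio of the X-linked to the autosomal median was 1.10, 1.11 and 1.09 in dsTcAMPKα libraries, against 0.966, 0.906 and 0.799 in dsEGFP libraries, so that X-linked genes lay above autosomal genes in dsTcAMPKα libraries and below them in dsEGFP libraries. Autosomal genes were then weighted so that their transcript lengths filled the 10 length bins of X-linked genes equally. The length-matched ratio was 1.15, 1.15 and 1.13 in dsTcAMPKα libraries, against 1.08, 1.05 and 0.958 in dsEGFP libraries. It averaged 1.15 ± 0.0145 in dsTcAMPKα larvae and 1.03 ± 0.0650 in dsEGFP larvae (SD, n = 3 each). The groups still did not overlap, with dsEGFP replicate 3 lowest, and matching brought the means closer together. Each of the 9 other linkage groups was set in the same way against all the remaining linkage groups, the X included. Of these 9, 0 had all dsTcAMPKα libraries above all dsEGFP libraries, and 8 overlapped. The remaining 1 had them all below (linkage group 9, with ratios of 1.01, 1.00 and 0.997 against 1.05, 1.05 and 1.03). No test was made of this ratio, since the class was chosen with results of these data known.

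**Figure D1:**
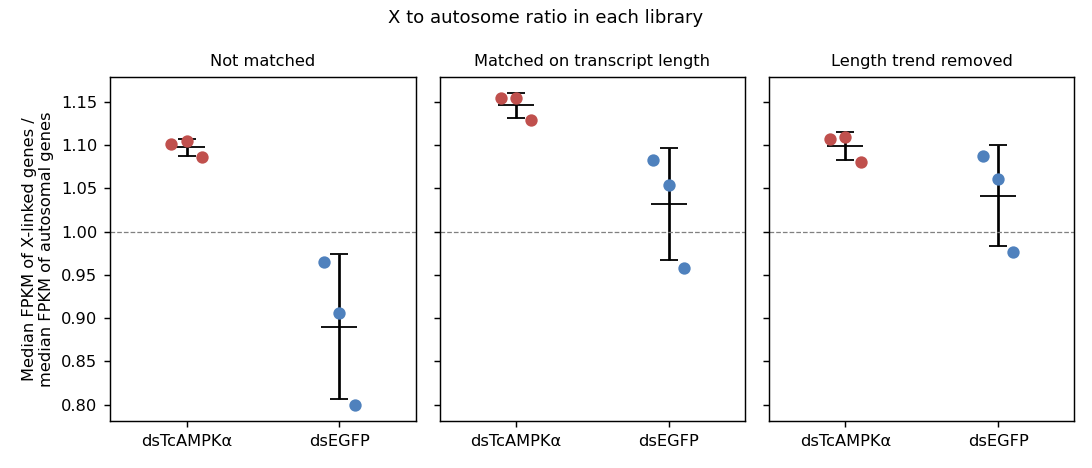
X to autosome ratio of median FPKM in each of the 3 dsTcAMPKα and 3 dsEGFP libraries (points), with the mean and SD of each group (bars), without matching, with autosomal genes weighted to the transcript lengths of X-linked genes, and with the same weights after a smooth length trend was removed from each library (on the log2(FPKM + 1) scale). The groups are apart in the first and second panels, and in the third dsEGFP replicate 1 (1.09) lies above dsTcAMPKα replicate 3 (1.08).

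The separation of the groups in the matched ratio depended on how the median was taken. The groups overlapped when the length trend was removed from each library, with 1.11, 1.11 and 1.08 in dsTcAMPKα libraries against 1.09, 1.06 and 0.977 in dsEGFP libraries. They overlapped as well when all 743 members were kept, when only the most abundant transcript of each gene was counted, and when mean log2(FPKM + 1) replaced the median. The ratio stayed above 1 in all 3 dsTcAMPKα libraries under each of these settings. It fell below 1 in dsEGFP replicate 3 under all of them but 1, the one with all 743 members (1.03).

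Reads summed over the chromosome were also higher in dsTcAMPKα libraries. X-linked transcripts took 6.19%, 5.85% and 5.68% of estimated reads in dsTcAMPKα libraries, against 4.59%, 4.13% and 4.53% in dsEGFP libraries. With mitochondrial reads left out of the total, the shares were 7.05%, 6.74% and 6.59% in dsTcAMPKα libraries, against 5.90%, 5.44% and 5.69% in dsEGFP libraries. These later shares counted transcripts of named X-linked genes only, whereas the earlier ones counted every X-linked transcript. The groups did not overlap on either total, and a share of reads weights long and abundant genes more than the median does.

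A few abundant genes of everyday cell functions dominated this output. The 10 most abundant members held 37.9% of the summed X-linked FPKM. Efa1, a translation elongation factor of the eEF1A family and the most abundant member, had 3790.3, 3562 and 3463 FPKM in dsTcAMPKα libraries, against 2438, 2394 and 4087 FPKM in dsEGFP libraries, with dsEGFP replicate 3 above every other library. RpS6 and RpL13, proteins of the small and large ribosomal subunits, were on the X as well. RpS6 had 1433, 1249 and 1263 FPKM in dsTcAMPKα libraries, against 1708, 1734 and 2255 FPKM in dsEGFP libraries, all dsTcAMPKα libraries below all dsEGFP libraries, with a log2 fold change of -0.52 (limma, Benjamini-Hochberg adjusted p = 0.111). RpL13 had 625, 589.6 and 559 FPKM in dsTcAMPKα libraries, against 951, 921 and 1169.8 FPKM in dsEGFP libraries (log2 fold change -0.77, limma adjusted p = 0.0335), a difference past the threshold on p but under that on fold. Gel, which encodes the actin-severing protein gelsolin, had 2242, 1525 and 1506 FPKM in dsTcAMPKα libraries, against 868, 813 and 1605 FPKM in dsEGFP libraries, and LOC658699, annotated by the study as subunit 5A of cytochrome c oxidase, had 356, 280.1 and 259 FPKM in dsTcAMPKα libraries, against 542, 728 and 360.0 FPKM in dsEGFP libraries. The Gel values overlapped through dsEGFP replicate 3, whereas those of LOC658699 did not overlap, and neither passed the test (limma adjusted p = 0.157 and 0.0913). The other members of the highest 10 were 14-3-3zeta, an adaptor of phosphorylated proteins, Lipt1, a lipoyltransferase, and LOC660215, LOC657776 and LOC660479, none of which passed the test (log2 fold changes 0.27 to 0.61). In all, 388 members (52.2%) had a mean of at least 10 FPKM and 51 (6.86%) of at least 100 FPKM, against 49.8% and 7.16% of autosomal genes.

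The second question was which X-linked genes changed after knockdown. Of the 595 tested members, 56 were called, meaning that they passed 0.05 on the Benjamini-Hochberg adjusted p and changed by more than 1 on the log2 scale in limma's test of log2(FPKM + 1) over all 10981 tested genes. Of these, 44 were higher and 12 lower in dsTcAMPKα larvae, which is 7.39% and 2.02% of the tested members. Over all genes tested, 6.8% were called, 4.09% higher and 2.71% lower. Among autosomal genes the shares were 3.54% and 2.71%, and 5.16% and 2.14% once they were weighted to the transcript lengths of X-linked genes. The excess of rises on the X was thus smaller against autosomal genes of like length. On the scale of log2(FPKM + 1) the changes of weakly expressed genes come out too small.

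The direction of these calls depended on the scaling. With median-ratio size factors, under which the median log2 fold change of all genes was -0.01 in place of 0.20, 15 members were called higher and 20 lower, where 5.56% of all genes were called, 1.48% higher and 4.08% lower. With the length trend removed from each library, 0 members were called higher (63 had a positive difference at an unadjusted p under 0.05) and 8 lower, where limma called 1.1% of all genes, 0.419% higher and 0.683% lower. All 44 genes called higher kept a positive log2 fold change after this removal, and all 12 called lower kept a negative one, 7 of them past both thresholds. A kept sign was likely beforehand, since these genes were selected in the same libraries for a change of more than 1. The calls also depended on which library was left out. They numbered 63 without dsEGFP replicate 1 and 70 without dsEGFP replicate 3, but 3 without dsEGFP replicate 2, 0 without dsTcAMPKα replicate 1, 0 without dsTcAMPKα replicate 2 and 3 without dsTcAMPKα replicate 3, settings in which limma called 0 to 54 genes of all those tested and 206 to 224 members had an unadjusted p under 0.05. Each of the 37 called genes followed across settings was lost in at least 2 of the 6 fits that left out a library.

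The libraries of the groups did not overlap for 336 of the 595 members, 275 with all dsTcAMPKα values above and 61 with all below. Over all genes tested, 44.8% did not overlap, 31.2% above and 13.6% below, and among length-weighted autosomal genes the shares were 39.9% and 10.0%, against 46.2% and 10.3% of X-linked genes. Within the dsEGFP group, replicate 3 held the lowest value of 272 of the 595 members and of 29 of the 44 called higher, replicate 2 that of 260 and 14, and replicate 1 that of 63 and 1.

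The largest fall on the chromosome, and among all genes tested, was that of LOC658538 (chrX:5997392-5998372, 3 exons), annotated by the study as apolipoprotein D-like. Proteins of that name are lipocalins, small secreted carriers of hydrophobic ligands. It had 0.760, 0 and 0.262 FPKM in dsTcAMPKα libraries, against 104, 48.8 and 209 FPKM in dsEGFP libraries, a log2 fold change of -6.30 ± 0.52 (SE, limma, adjusted p = 0.0153). It was thus near 0 in every dsTcAMPKα library, and the dsEGFP libraries differed widely among themselves, with replicate 3 highest. Its neighbour dnt (LOC658460), which starts just downstream and encodes a Ryk-type receptor tyrosine kinase, had 14.1, 21.2 and 16.8 FPKM in dsTcAMPKα libraries, against 18.4, 13.0 and 15.0 FPKM in dsEGFP libraries and overlapped between groups (log2 fold change 0.15, limma adjusted p = 0.630). LOC103314645, a little further along (chrX:6005017-6005668), fell as well, with 11.3, 22.9 and 20.1 FPKM in dsTcAMPKα libraries, against 62.6, 40.4 and 38.6 FPKM in dsEGFP libraries (log2 fold change -1.36, limma adjusted p = 0.0358).

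A run of falling genes lay at chrX:5855371-5870243. LOC659126, annotated by the study as suppressor protein SRP40, had 0.505, 0.0835 and 0.106 FPKM in dsTcAMPKα libraries, against 12.0, 5.74 and 30.2 FPKM in dsEGFP libraries (log2 fold change -3.52 ± 0.54, limma adjusted p = 0.0220). LOC103314650 had 0.386, 0 and 0 FPKM in dsTcAMPKα libraries, against 10.8, 8.17 and 16.8 FPKM in dsEGFP libraries (-3.48 ± 0.30, adjusted p = 0.0161), and LOC103314652 had 0.0610, 0.727 and 0.451 FPKM in dsTcAMPKα libraries, against 2.62, 3.32 and 8.20 FPKM in dsEGFP libraries (-1.92 ± 0.40, adjusted p = 0.0305). In each of them all dsTcAMPKα libraries were under 1 FPKM and all dsEGFP libraries above 2 FPKM, with dsEGFP replicate 3 highest. LOC103314651, which lies between them, had a mean under 1 FPKM and was not tested, at 0.119 FPKM on average in dsTcAMPKα larvae and 1.72 FPKM in dsEGFP larvae. The next tested gene, Chd1 (LOC658899, chrX:5874335-5890084), a chromatin remodeller that binds nucleosomes at active genes, went the other way, with 26.4, 24.5 and 25.6 FPKM in dsTcAMPKα libraries, against 11.8, 8.68 and 3.79 FPKM in dsEGFP libraries (1.66 ± 0.35, limma adjusted p = 0.0319). Its assembled locus also holds Shc, so that reads of the overlapping gene may be split between them.

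mtg (LOC662081), named after *mind the gap*, a secreted chitin-binding protein of the *Drosophila* synapse, had 0.593, 1.59 and 1.79 FPKM in dsTcAMPKα libraries, against 11.5, 6.32 and 10.4 FPKM in dsEGFP libraries (log2 fold change -2.17, limma adjusted p = 0.0211). mas (LOC656822), annotated by the study as the serine proteinase stubble, had 0.478, 1.17 and 1.08 FPKM in dsTcAMPKα libraries, against 11.1, 4.23 and 6.62 FPKM in dsEGFP libraries (-2.06, adjusted p = 0.0240). Neither overlapped between groups, and both remained called when the length trend was removed (-2.56 and -2.60, limma adjusted p = 0.0218 and 0.0242). The most abundant of the falling genes was LOC103313049 (chrX:3194293-3195057), with 42.6, 42.6 and 129.7 FPKM in dsTcAMPKα libraries, against 371, 447 and 235 FPKM in dsEGFP libraries (-2.43, adjusted p = 0.0288). LOC107397706, a long non-coding RNA in RefSeq, had 2.45, 4.07 and 5.54 FPKM in dsTcAMPKα libraries, against 8.97, 12.9 and 16.9 FPKM in dsEGFP libraries (-1.48, adjusted p = 0.0315), and LOC100142093 had 1.41, 3.19 and 2.16 FPKM in dsTcAMPKα libraries, against 12.7, 7.39 and 4.89 FPKM in dsEGFP libraries (-1.47, adjusted p = 0.0410). The dsTcAMPKα libraries were below all dsEGFP libraries in each. When the length trend was removed, LOC100142093 remained called (-2.10, limma adjusted p = 0.0443). LOC103313049 and LOC107397706 did not (-2.09 and -0.99, adjusted p = 0.141 and 0.205). Nor did LOC103314645 and LOC103314652, described above (-0.92 and -1.82, adjusted p = 0.240 and 0.0747). The remaining called falls, outside the 10 largest, were dsx-c73A (LOC103313033, -1.34) and LOC662318, annotated as retinol dehydrogenase 13-like (-1.10).

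Rises were smaller and more alike than falls, with log2 fold changes of 1.00 to 1.94 and a median of 1.22. The largest was that of LOC656654 (chrX:81216-90116), with 13.0, 7.73 and 11.8 FPKM in dsTcAMPKα libraries, against 1.68, 0.818 and 4.75 FPKM in dsEGFP libraries (1.94 ± 0.44, limma adjusted p = 0.0352). LOC659958, annotated as nipped-B-like, the loader of cohesin onto chromosomes, had 19.1, 17.7 and 18.8 FPKM in dsTcAMPKα libraries, against 8.81, 4.80 and 1.51 FPKM in dsEGFP libraries (1.90 ± 0.47, adjusted p = 0.0410), and LOC107397830 had 7.45, 5.75 and 8.06 FPKM in dsTcAMPKα libraries, against 2.73, 1.50 and 0.302 FPKM in dsEGFP libraries (1.80 ± 0.39, adjusted p = 0.0326). In LOC659958 and LOC107397830 the lowest library was dsEGFP replicate 3, and the dsTcAMPKα libraries differed less among themselves than the dsEGFP libraries.

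Polr3K, a small subunit of RNA polymerase III, and Tcs1 lie within chrX:7177730-7178921 and moved side by side. Polr3K had 28.9, 21.4 and 24.3 FPKM in dsTcAMPKα libraries, against 12.5, 8.77 and 3.09 FPKM in dsEGFP libraries (1.66 ± 0.43, limma adjusted p = 0.0466) and Tcs1 had 27.1, 20.8 and 22.3 FPKM in dsTcAMPKα libraries, against 9.93, 9.85 and 3.14 FPKM in dsEGFP libraries (1.62 ± 0.39, adjusted p = 0.0401). Tcs1 shares an assembled locus, so its reads may be split with a neighbour. These transcripts, of 439 and 697 nt, were exceptions among the rises, of which 39 of 44 were longer than the X-linked median of 2012 nt, with a median of 4372 nt and 12 exons, while the 12 falls had a median of 1177.5 nt and 4 exons.

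At the other end of the length scale, bt (LOC660154, bent), which encodes the giant muscle protein projectin, had a transcript of 26928 nt in 64 exons and 17.5, 24.5 and 23.7 FPKM in dsTcAMPKα libraries, against 9.53, 6.40 and 4.31 FPKM in dsEGFP libraries (1.60 ± 0.28, limma adjusted p = 0.0249). Apoltp (LOC660397), the apolipoprotein of lipid transfer particle, which loads lipid onto lipophorin in the hemolymph, had a transcript of 12766 nt in 51 exons and 35.8, 34.7 and 38.6 FPKM in dsTcAMPKα libraries, against 14.9, 11.4 and 10.3 FPKM in dsEGFP libraries (1.51 ± 0.17, adjusted p = 0.0164). After removal of the length trend their log2 fold changes were 0.24 (limma adjusted p = 0.615) and 0.39 (0.365). LOC658094, annotated by the study as lachesin, a cell-surface protein of the immunoglobulin superfamily, had 10.2, 7.22 and 4.90 FPKM in dsTcAMPKα libraries, against 2.63, 1.44 and 1.37 FPKM in dsEGFP libraries (1.56, adjusted p = 0.0275), and cv-c (LOC658403, crossveinless c), a GTPase-activating protein gene, had 50.9, 40.2 and 42.1 FPKM in dsTcAMPKα libraries, against 19.5, 14.9 and 10.8 FPKM in dsEGFP libraries (1.53, adjusted p = 0.0217). The groups did not overlap for any of these 4 genes, and within dsTcAMPKα larvae LOC658094 differed the most among libraries. With the length trend removed, Polr3K, LOC107397830, LOC656654 and Tcs1 had 2.22, 2.13, 2.01 and 1.98 (limma adjusted p = 0.0724, 0.0933, 0.0724 and 0.109). LOC658094, LOC659958, cv-c and Chd1 had 1.15, 0.97, 0.80 and 0.64 (limma adjusted p = 0.127, 0.186, 0.0826 and 0.143). Thus the largest rises differed in how much of the change remained, and 0 of them stayed called.

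**Figure D2:**
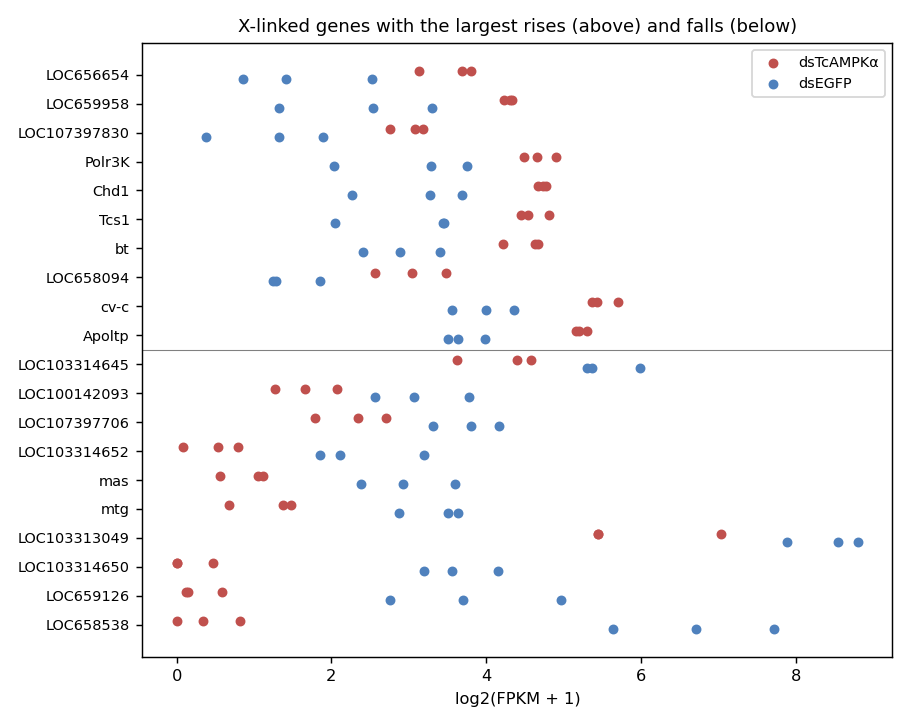
Levels of the 10 called X-linked genes with the largest rises (upper rows) and the 10 with the largest falls (lower rows), as log2(FPKM + 1) in each of the 3 dsTcAMPKα and 3 dsEGFP libraries (points, 1 row a gene). The groups do not overlap in any row, which the choice of genes required, and LOC658538 lies near 0 in dsTcAMPKα libraries.

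The insulin receptor gene LOC661524 (InR in RefSeq, chrX:5210344-5236509) was X-linked. It had 22.0, 19.0 and 25.5 FPKM in dsTcAMPKα libraries, against 11.4, 8.86 and 7.15 FPKM in dsEGFP libraries, a log2 fold change of 1.20 (95% interval 0.71 to 1.70, limma adjusted p = 0.0245). The groups did not overlap, and dsEGFP replicate 3 was lowest. After removal of the length trend the log2 fold change was 0.38 (adjusted p = 0.211). Other X-linked genes of insulin and nutrient signalling were Pi3K21B, the regulatory subunit of phosphoinositide 3-kinase, Rheb, the GTPase that activates TOR, the trehalase gene Treh and the adipokinetic hormone gene Akh1. Pi3K21B had 28.5, 32.8 and 32.5 FPKM in dsTcAMPKα libraries, against 26.5, 24.6 and 4.76 FPKM in dsEGFP libraries (1.01, limma adjusted p = 0.255), and dsEGFP replicate 3 lay far below the other dsEGFP libraries. Treh had 39.1, 31.0 and 39.6 FPKM in dsTcAMPKα libraries, against 25.3, 23.0 and 20.6 FPKM in dsEGFP libraries (0.65, adjusted p = 0.0426) and Rheb 30.6, 25.8 and 21.9 FPKM in dsTcAMPKα libraries, against 27.3, 24.2 and 29.4 FPKM in dsEGFP libraries (-0.05, adjusted p = 0.846). Treh did not overlap between groups but missed the threshold on fold, whereas Rheb overlapped. Akh1 had 3.09, 3.41 and 2.74 FPKM in dsTcAMPKα libraries, against 5.24, 7.52 and 3.89 FPKM in dsEGFP libraries, lower in every dsTcAMPKα library, and did not pass (-0.65, adjusted p = 0.105). Of the 6 genes of this group, 5 were tested, 1 rose, 0 fell, and the median log2 fold change was 0.65. Among all genes tested, limma called 4.09% higher and 2.71% lower.

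The X-linked genes with a symbol were then sorted into 10 groups by known function. Their levels were known when they were sorted, so the counts describe the groups and support nothing beyond them. For reading them, the median log2 fold change was 0.42 over X-linked genes and 0.20 over all genes tested. A positive value was found for 76.3% of X-linked genes and 63.9% of all genes tested. Of X-linked genes 7.39% were called higher and 2.02% lower, against 4.09% and 2.71% of all genes tested.

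The 11 chromatin regulators all had positive log2 fold changes (median 0.91) and 3 rose. Besides Chd1 these were trx (LOC658843), the trithorax methyltransferase that marks active genes, with 6.39, 5.73 and 5.77 FPKM in dsTcAMPKα libraries, against 2.50, 1.41 and 1.47 FPKM in dsEGFP libraries (1.34, limma adjusted p = 0.0226), and Kdm5 (LOC103314648), a histone H3K4 demethylase, with 22.3, 19.7 and 23.1 FPKM in dsTcAMPKα libraries, against 12.9, 9.43 and 5.73 FPKM in dsEGFP libraries (1.19, adjusted p = 0.0364). All dsTcAMPKα libraries lay above all dsEGFP libraries for each of the 11, where this held for 31.2% of all genes tested and 39.9% of autosomal genes weighted to X-linked lengths, and 4.09% of all genes were called higher. The demethylase Utx (0.76), the methyltransferase gpp (1.10), the SWI/SNF subunit osa (0.91) and the deacetylase HDAC6 (0.94) did not pass (limma adjusted p = 0.0645, 0.0804, 0.119 and 0.0707). These are long genes, with a median transcript of 5093 nt, and after removal of the length trend their median log2 fold change was 0.07, with 6 of 11 positive and 0 called.

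The 12 genes of adhesion, extracellular matrix and axon guidance likewise all had positive values (median 0.76), and 4 rose. Positive values were held by 76.3% of X-linked genes, and by 72.2% of autosomal genes weighted to X-linked lengths. Over all genes tested, 4.09% were called higher. shg (LOC661970, shotgun), the E-cadherin of *Drosophila* epithelial junctions, had 73.6, 65.6 and 70.1 FPKM in dsTcAMPKα libraries, against 33.6, 21.9 and 22.7 FPKM in dsEGFP libraries (1.41, limma adjusted p = 0.0211). LanB1 (LOC661297), the laminin beta chain of basement membranes, had 35.0, 23.8 and 27.9 FPKM in dsTcAMPKα libraries, against 11.6, 6.06 and 11.6 FPKM in dsEGFP libraries (1.51, adjusted p = 0.0267), Nrg (LOC658762, neuroglian) rose by 1.23 and kon (LOC658178, kon-tiki) by 1.28 on the log2 scale (adjusted p = 0.0219 and 0.0383). The 3 libraries of dsTcAMPKα larvae were above those of dsEGFP larvae in all 4. The catenin gene alpha-Cat (0.76, adjusted p = 0.0300), which links cadherin to actin, Cont (0.56, 0.0497) and Gli (0.64, 0.0400), both of septate junctions, passed on p and not on fold. The plexins PlexA and PlexB (0.76 and 1.07) and the semaphorin Sema-1a (0.53), receptors and a ligand of axon guidance, did not pass the test. These too are long genes, with a median transcript of 5204 nt. With the length trend removed the median of the group was 0.09, with 8 of 12 positive and 0 called.

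Of 12 small GTPases and their regulators, 5 rose, all of them regulators with transcripts of 3282 to 9511 nt, namely the GTPase-activating protein genes cv-c, Asap, Nf1 and LOC661306 and the exchange factor siz. Asap (LOC656708), which acts on Arf, had 18.9, 16.2 and 17.1 FPKM in dsTcAMPKα libraries, against 7.59, 4.73 and 5.09 FPKM in dsEGFP libraries (1.45, limma adjusted p = 0.0211), and Nf1 (LOC657159), neurofibromin, which acts on Ras, had 11.1, 9.19 and 10.7 FPKM in dsTcAMPKα libraries, against 5.71, 3.48 and 2.80 FPKM in dsEGFP libraries (1.22, adjusted p = 0.0291). The GTPases themselves did not pass, with log2 fold changes of -0.28 for Arf4, -0.03 for Rap2l, 0.29 for Rab6, 0.40 for Rap1 and 0.48 for Arf6. Over all genes tested, 4.09% were called higher. After removal of the length trend the median of this group was 0.10 and 0 of the 12 were called.

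Of 15 genes of ion channels, receptors and excitability, 14 were tested and 2 rose, where 4.09% of all genes tested were called higher. Itpr (LOC660517), the inositol trisphosphate receptor that releases calcium from the endoplasmic reticulum, had 13.4, 12.8 and 13.6 FPKM in dsTcAMPKα libraries, against 7.58, 3.96 and 4.61 FPKM in dsEGFP libraries (1.20, limma adjusted p = 0.0275), and Teh1 (LOC658330), an auxiliary protein of voltage-gated sodium channels, had 24.6, 19.0 and 13.9 FPKM in dsTcAMPKα libraries, against 7.62, 7.14 and 9.93 FPKM in dsEGFP libraries (1.11, adjusted p = 0.0328). The groups did not overlap in either. The channel subunit that such proteins assist, Para, is on the same chromosome and had 2.87, 2.68 and 3.24 FPKM in dsTcAMPKα libraries, against 2.56, 1.75 and 1.07 FPKM in dsEGFP libraries, without passing the test (0.53, adjusted p = 0.169). tipE, Teh2, Teh3 and Teh4, relatives of Teh1, lie together from chrX position 7926163 on, at levels of 0.366 to 3.20 FPKM over the 6 libraries, and had log2 fold changes of -0.21 to 0.47 with 0 called. Of these, Teh2 and Teh3 share an assembled locus, so that the split of reads between them is uncertain. The glutamate-gated chloride channel gene Glucl (0.84, adjusted p = 0.0315) and the histamine-gated Hiscl2 (0.91, 0.0371) passed on p alone, while the nicotinic receptor subunits nAChRa6, nAChRa7 and nAChRb1 did not (0.12, -0.04 and 0.64). With the length trend removed the median of the group was 0.08, with 8 of 14 positive and 0 called.

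The 8 genes of Hippo, Hedgehog, Wnt and Notch signalling had positive values (median 0.53), and 0 were called by limma. The kinase gene hpo (Hippo) came nearest, with 22.1, 24.5 and 21.0 FPKM in dsTcAMPKα libraries, against 15.5, 12.5 and 15.4 FPKM in dsEGFP libraries (0.61, adjusted p = 0.0427, past the threshold on p), whereas yki, the coactivator that this kinase restrains, had 56.5, 58.6 and 68.5 FPKM in dsTcAMPKα libraries, against 68.0, 59.1 and 33.9 FPKM in dsEGFP libraries (0.24, adjusted p = 0.554) and overlapped between groups. Of 6 genes of muscle and the actin cytoskeleton, 2 rose, where 4.09% of all genes tested were called higher. They were bt and Fim, which encodes the actin-bundling protein fimbrin. Fim had 173, 132 and 125 FPKM in dsTcAMPKα libraries, against 78.4, 63.5 and 55.8 FPKM in dsEGFP libraries (1.11, limma adjusted p = 0.0254) and lies in a locus that another named gene also occupies. With median-ratio size factors Fim had 0.88 and missed the threshold on fold. With the length trend removed it had 0.62 (limma adjusted p = 0.175). The median of the muscle and actin group was then 0.38, with 6 of 6 positive and 0 called.

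Of 9 genes of translation and secretion, 5 had positive and 4 negative log2 fold changes (median 0.18), and 1 rose, larp (LOC657260), an RNA-binding protein gene, at 1.15 (limma adjusted p = 0.0474). Limma called 4.09% of all genes tested higher. The short genes of this group were lower, with RpS6, RpL13 and the translocon-associated subunits SsRbeta and Tapdelta below dsEGFP in all dsTcAMPKα libraries. SsRbeta had 190.0, 149 and 154 FPKM in dsTcAMPKα libraries, against 256, 258 and 260.0 FPKM in dsEGFP libraries (-0.66, adjusted p = 0.0357). Of 9 genes of mitochondrial and peroxisomal metabolism, 0 were called by limma and the median was 0.09. CPT2 and Acadvl, of mitochondrial beta-oxidation, had 0.19 and 0.34.

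The 4 cuticle genes had a median log2 fold change of -1.46, and 0 were called. Cht5 (chrX from 7767341), a chitinase that degrades old cuticle at the molt, had 0, 26.9 and 11.8 FPKM in dsTcAMPKα libraries, against 119.9, 72.0 and 119 FPKM in dsEGFP libraries. All dsTcAMPKα libraries were below all dsEGFP libraries, with dsTcAMPKα replicate 1 listed at 0. The log2 fold change of -3.84 ± 1.15 fell short of the threshold on p (limma adjusted p = 0.0650). Without dsTcAMPKα replicate 1 it was -2.43 (limma adjusted p = 0.0897), in a fit that called 0 genes of all those tested. Cpap1-a, a chitin-binding cuticular protein gene, had 3.63, 7.68 and 16.4 FPKM in dsTcAMPKα libraries, against 24.1, 26.6 and 56.0 FPKM in dsEGFP libraries (-1.94 ± 0.54, adjusted p = 0.0541), again without overlap. The chitin deacetylase gene Cda5 and the zona pellucida protein gene dyl overlapped between groups (0.13 and -0.99). On log2(FPKM + 1) this group alone of the 10 had a negative median. After removal of the length trend its median was -1.54. Translation and secretion (-0.08) and mitochondrial and peroxisomal metabolism (-0.09) were then negative as well.

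**Figure D3:**
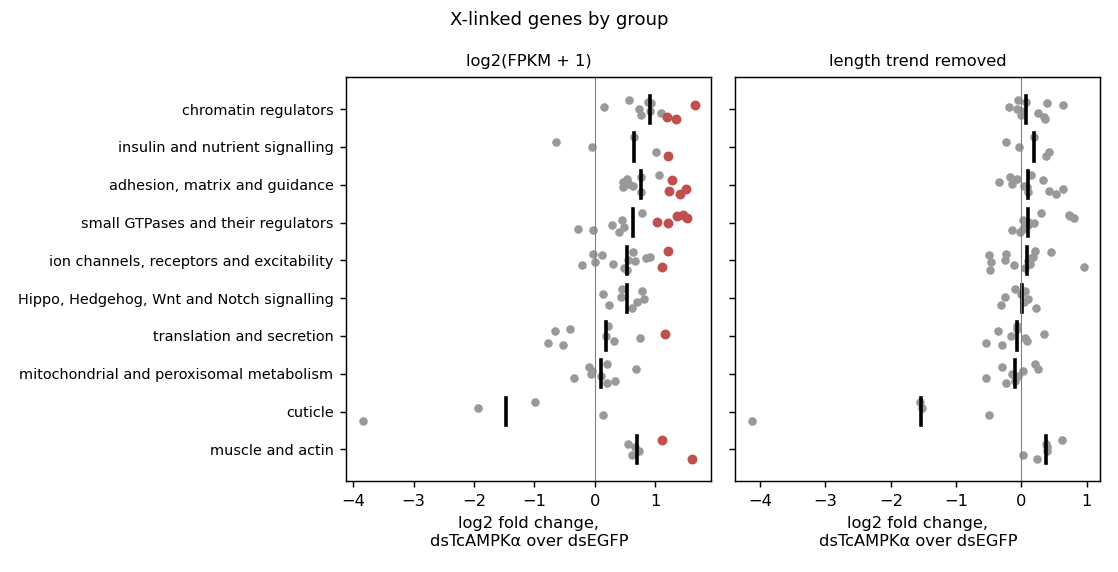
log2 fold change (dsTcAMPKα over dsEGFP) of the tested members of 10 groups of X-linked genes by function, on log2(FPKM + 1) (left) and after removal of the length trend (right). Points are genes, red where called, and bars are group medians, which run from -1.46 (cuticle) to 0.91 (chromatin regulators) on the left and from -1.54 to 0.38 on the right, where 0 genes of these groups are called.

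The 6 process lists of the study's annotation with the most X-linked members held 4 to 8 tested members each and 4 calls in all, every one a rise, beside 4.09% of all genes tested called higher and 2.71% lower. With so few members, 0 or 1 call a list cannot be told apart from these shares. Cation transmembrane transport had 0 of 8 called by limma and peptidyl-tyrosine dephosphorylation 0 of 5. Peptidyl-tyrosine phosphorylation had 1 of 7, the insulin receptor, beside the kinases Csk (0.51) and Shark (0.56), which did not pass. Microtubule-based movement had 1 of 4, LOC100141737, with 15.2, 12.2 and 12.3 FPKM in dsTcAMPKα libraries, against 6.59, 3.94 and 6.87 FPKM in dsEGFP libraries (1.09, limma adjusted p = 0.0309). Response to oxidative stress had 1 of 5, LOC660520, with 54.7, 45.6 and 20.3 FPKM in dsTcAMPKα libraries, against 15.6, 10.5 and 13.7 FPKM in dsEGFP libraries (1.43, adjusted p = 0.0473), in which dsTcAMPKα replicate 3 was far below the other dsTcAMPKα libraries. Small GTPase mediated signal transduction had 1 of 5, LOC661306 (1.03). Outside these lists cnc, the transcription factor of the antioxidant response, had 174, 151 and 160.0 FPKM in dsTcAMPKα libraries, against 104, 102 and 60.0 FPKM in dsEGFP libraries (0.90, adjusted p = 0.0483), past the threshold on p alone.

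The third question was whether the shift of X-linked genes differed from that of other chromosomes. The median log2 fold change was 0.42 over the 595 X-linked genes, with 454 positive, against 0.18 over autosomal genes and 0.33 over autosomal genes weighted to X-linked lengths. The difference was thus 0.24 without matching and 0.09 with it, and 0.07 when the length trend was removed. It was 0.03 without dsEGFP replicate 3 and 0.05 without dsTcAMPKα replicate 1, and stayed positive in every setting tried. The medians of the other 9 linkage groups ran from 0.07 to 0.27. Against genes of like length on all the other linkage groups, the X included, their differences ran from -0.08 to 0.09. Linkage group 3, at 0.09, equalled the X, although the X was set against autosomal genes only. The X thus had the highest median before matching but did not stand apart from linkage group 3 after it, and it also had the highest share of called genes (9.41%, against 4.75% to 7.18%), which was not matched on length.

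**Figure D4:**
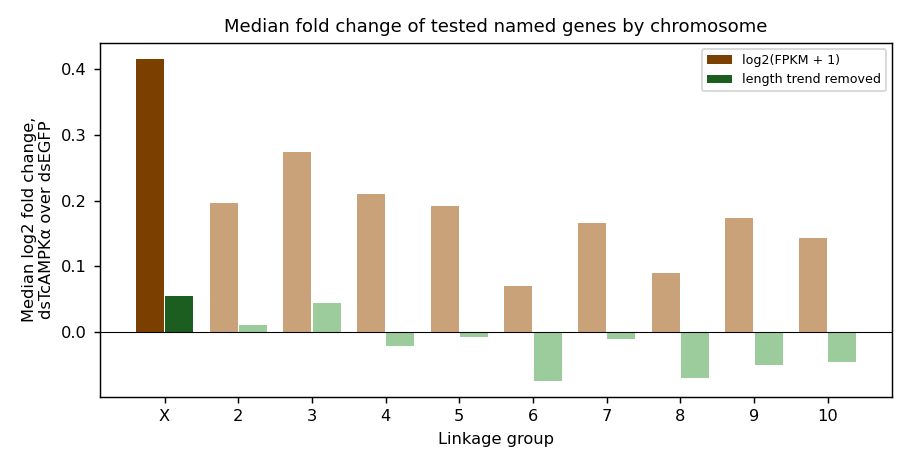
Median log2 fold change (dsTcAMPKα over dsEGFP) of tested named genes on each of the 10 linkage groups, on log2(FPKM + 1) and after removal of the length trend (bars, from 0). The X is highest on both, at 0.42 and 0.06, with linkage group 3 next, at 0.27 and 0.04.

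The change of X-linked genes followed transcript length closely. As a description across genes, which share libraries and are not independent, Spearman's rank correlation of the log2 fold change with length was 0.66 over the 595 X-linked genes and 0.69 over autosomal genes, and 0.10 for X-linked genes after the trend was removed. In the shortest of 10 bins of X-linked genes (up to 766 nt) the median log2 fold change was -0.45, against -0.53 in autosomal genes of the same lengths, and in the longest (4236 to 26928 nt) it was 1.03, against 0.85. Of the 60 X-linked genes in the longest bin, 23 (38.3%) were called higher, against 24.6% of autosomal genes in that range. The X-linked median was above the autosomal one in 8 of 10 bins, with differences of -0.05 to 0.18, the largest in the longest bin. The length trend was thus shared with autosomal genes, and its part in the rise of any single gene was not tested beyond the removal described.

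**Figure D5:**
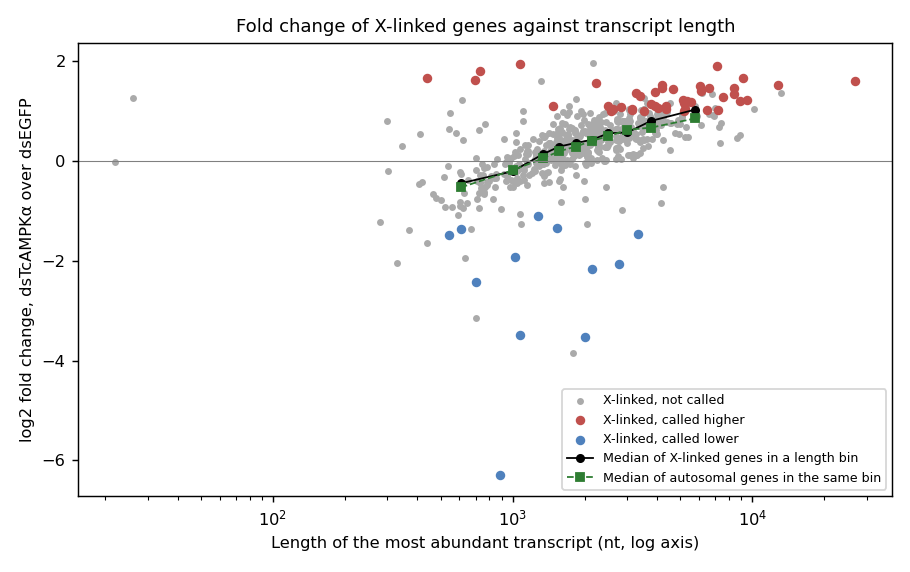
log2 fold change (dsTcAMPKα over dsEGFP) of the 595 tested X-linked genes against the length of the most abundant transcript (log axis), with the 44 called higher and 12 called lower marked. Lines join the medians of X-linked and autosomal genes in 10 length bins, which run from -0.45 and -0.53 in the shortest to 1.03 and 0.85 in the longest.

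Along the chromosome the shift was spread and not tied to a region. In 10 windows of 59 or 60 tested genes each, the median log2 fold change was 0.20 to 0.48, and -0.01 to 0.10 after removal of the length trend, positive in 9 of 10. Called rises were found in 9 of the 10 windows, the most (9) in the window whose genes start at chrX:4186588 to 4938914, which holds bt, Apoltp, LOC659958, siz, LanB1 and Itpr. Called falls were found in 5 windows, with 4 in that from 4943147 to 5874335 and 3 in that from 5900737 to 6660160, next to each other and including LOC658538 and the run around LOC659126. The median level varied between 14.7 and 20.2 FPKM among windows.

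Markers of germ line, sex determination and dosage compensation were looked up by symbol, and 8 of 16 were matched. Among them msl-2 (LOC100142135) is itself X-linked and had 6.94, 7.03 and 7.70 FPKM in dsTcAMPKα libraries, against 6.53, 4.16 and 5.65 FPKM in dsEGFP libraries. Its dsTcAMPKα libraries were above all dsEGFP libraries by a small margin, and the difference did not pass (log2 fold change 0.37, 95% interval -0.09 to 0.82, limma adjusted p = 0.212). The autosomal genes mle, an RNA helicase, and mof, a histone acetyltransferase, partners of msl-2 in *Drosophila*, had log2 fold changes of 0.62 and 0.28 (adjusted p = 0.134 and 0.461). Of sex determination genes, dsx had 1.13, 1.46 and 1.19 FPKM in dsTcAMPKα libraries, against 2.39, 1.79 and 0.433 FPKM in dsEGFP libraries, and it overlapped between groups. fru (0.84) passed on p alone and ix (-0.19) did not pass (limma adjusted p = 0.0252 and 0.415). Of the germ line markers, 2 of 6 were matched. aub, which encodes a Piwi protein, had 110, 97.7 and 105 FPKM in dsTcAMPKα libraries, against 55.5, 44.9 and 52.6 FPKM in dsEGFP libraries. It was called higher (1.02, limma adjusted p = 0.0211), while nos had a log2 fold change of 0.77 (adjusted p = 0.0988). The call for aub did not hold when the length trend was removed (0.45, limma adjusted p = 0.137). Under that removal nos had 0.15 and fru 0.19. The levels of these genes were not read as a measure of sex, and the part of the sex make-up of the pools in the X to autosome ratio was not tested.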

How the data were processed

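RNA-Seq of 6 libraries (3 dsTcAMPKα, 3 dsEGFP) was used, grouped by the injection named in the labels. The authors used HISAT2 to place their filtered reads on Tcas5.2, and StringTie to assemble and quantify transcripts over 1 shared annotation, without pooling replicates. The deposited tables give, for each of 31944 transcripts, the FPKM and the signal (mean read coverage per base), both already made by the authors, and the transcript length. Versions are not given in the sources used here. FPKM was summed by gene name. Reads were estimated as coverage times length over the read length of 150 nt, so depth is an estimate.

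The members, gene lists and groups were chosen with earlier results of these data known. Genes that averaged 1 FPKM or more were tested with limma 3.58.1 (R 4.3.3, variance trend) on log2(FPKM + 1), all 10981 together, with Benjamini-Hochberg adjustment. Called means adjusted p under 0.05 and absolute log2 fold change above 1. In simulated data for this comparison, 200 of 10981 genes were changed by 2 on the log2 scale. Of these 200, 68% were recovered, and 3 unchanged genes were called. The simulated noise was drawn separately for each value, without a length trend or a scaling difference between libraries. Errors from those were thus not covered. Length matching weighted autosomal genes over 10 bins of the length of the most abundant transcript. For the length correction, a lowess trend (span 0.4) of each library's deviation from the gene mean on log length was subtracted. Genes named were the 10 most abundant members, the 10 largest rises and falls among called genes without overlap, the 10 most abundant with a symbol in the tables, LOC661524, and up to 3 of each process list, and members of the symbol groups besides. Genes that none of these hold were chosen after their values were seen, and so were the leaving out of shared loci and the length-corrected ratio among the alternatives. Sequences of promoters were not analysed here.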

Additional observations from a re-analysis of the deposited data

How the results depend on the processing

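No paired analysis was possible because the labels give no replicate numbers, and the numbers used here only name libraries in accession order. The length-matched difference of median log2 fold change between X-linked and autosomal genes stayed positive in all alternatives. It was 0.07 to 0.10 with other pseudocounts, filters, scalings and bins, and 0.24 with no matching. Over the fits that left out a library it was 0.03 to 0.12. Size factors move both medians nearly alike, so that setting could hardly change the difference. The pooled SD of the log2 matched ratio within groups was 0.067, beside a difference of 0.087. The count of 56 called members was 63 with a pseudocount of 0.1, 51 with a minimum of 5 FPKM, 53 with no variance trend and 52 without genes that share a locus. It was 35 with median-ratio size factors, 35 with quantile normalization (19 higher, 16 lower), 8 with the length correction, 37 with the most abundant transcript, 30 with no filter, 140 with no fold threshold (23.5% of members, where 16.5% of all genes passed), and 0 to 70 in limma fits without 1 library. Of the 6 such fits, those without dsTcAMPKα replicate 1 or 2 called 0, with 206 and 211 members at an unadjusted p under 0.05. These fits held fewer samples by construction, and otherwise the cause was not tested.

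The matched ratio of 1.15 in dsTcAMPKα larvae was 1.10 with no matching, 1.21 with no filter, 1.10 with a minimum of 5 FPKM, 1.06 with the most abundant transcript, 1.07 as a mean of logs, 1.18 with genes above 0 in every library, 1.10 with the length correction, and 1.14 to 1.15 without 1 library. That of 1.03 in dsEGFP larvae was 0.890 with no matching, 1.15 with no filter and 0.984, below 1, with the most abundant transcript, and 1.01 to 1.07 without 1 library. Of 144 named genes, 37 were called, and the length correction kept 6 of these, median-ratio size factors 22 and quantile normalization 22. No called gene changed sign, which their selection in these same libraries made likely, and in 109 of 1726 values a gene called in neither fit did. The ratios of low-level genes rest on few reads, which limits the members under 1 FPKM most.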

Other observations

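The X chromosome also held 16 assembled loci without a gene name, which are outside the counts above. MSTRG.651 (chrX:7935733-7936112), beside the tipE and Teh genes, had 7.53, 5.43 and 4.70 FPKM in dsTcAMPKα libraries, against 16.6, 19.8 and 13.3 FPKM in dsEGFP libraries. All dsTcAMPKα libraries were lower, and it was the only unnamed X-linked locus called (log2 fold change -1.35, limma adjusted p = 0.0240; 0.118 with the length correction). MSTRG.644 (chrX:7911656-7912468), a single-exon locus, had 3.19, 3.66 and 4.27 FPKM in dsTcAMPKα libraries, against 2.30, 0 and 1.56 FPKM in dsEGFP libraries, without passing the test (1.20, limma adjusted p = 0.106). MSTRG.463 had 0.0782, 0.306 and 6.31 FPKM in dsTcAMPKα libraries, against 0.370, 4.04 and 82.6 FPKM in dsEGFP libraries, and the groups overlapped.

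Some X-linked genes outside the rule for named genes showed large differences that did not pass the test, and they were chosen after their values were seen. LOC100141604 had 0, 0 and 4.32 FPKM in dsTcAMPKα libraries, against 35.3, 29.7 and 2.35 FPKM in dsEGFP libraries (log2 fold change -3.15). dsEGFP replicate 3 lay with the dsTcAMPKα libraries in this gene. LOC656320 had 134, 45.6 and 43.6 FPKM in dsTcAMPKα libraries, against 15.8, 8.94 and 58.6 FPKM in dsEGFP libraries (1.60), and LOC103314353 had 39.3, 20.2 and 21.4 FPKM in dsTcAMPKα libraries, against 4.10, 2.00 and 20.3 FPKM in dsEGFP libraries (1.96). In both, the dsEGFP replicate 3 value was again the one near the dsTcAMPKα libraries. LOC655328 had 52.9, 39.0 and 34.8 FPKM in dsTcAMPKα libraries, against 224, 363 and 64.6 FPKM in dsEGFP libraries (-2.04), without overlap.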
